A study of Homo sapiens with 9 samples.

Results

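The genes followed here carry cholesterol into, through and out of the intestinal cell or store it as ester: NPC1L1, SCARB1, ABCA1, NPC1, NPC2, LIPA, TMEM97, SOAT1 and SOAT2. They were chosen by name, with earlier results of these data known. They are 9 of the 27654 genes of the count table, and all 9 were among the 14674 genes that passed the filter on low counts. The cells were Caco-2, a line derived from a human adenocarcinoma of the colon that is widely used as a model of the absorptive intestinal cell, and their poly(A) RNA was sequenced. 3 libraries came from cells given SGA360 (10 µM) together with lovastatin (10 µM), 3 from cells given SGA315 (10 µM) together with lovastatin (10 µM), and 3 from cells given lovastatin (10 µM) without a ligand. Treatment lasted 48 h, and all cells were in aMEM with lipid-depleted fetal bovine serum. The study describes both compounds as ligands of AHR, the aryl hydrocarbon receptor, a ligand-activated transcription factor. Every group thus carried the statin, an inhibitor of cholesterol synthesis, and cells without lovastatin are not analysed here. Whether replicate libraries stem from different cultures is not stated in the labels, and the p-values therefore cover the variation among these libraries, which may be technical variation.

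In the small intestine NPC1L1 takes up free cholesterol at the brush border, and the esterifying enzymes SOAT1 and SOAT2 store it as ester in the endoplasmic reticulum, where SOAT2 supplies ester for chylomicrons. Cholesterol that arrives in lipoproteins is freed in the lysosome by LIPA and leaves through NPC2 and NPC1. ABCA1 passes cholesterol to apolipoprotein A-I, and SCARB1 exchanges it with high-density lipoprotein. When the cell lacks sterol, the transcription factor SREBP2 raises genes of synthesis and uptake, and when oxysterols accumulate, the receptor LXR raises ABCA1.

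Promoter sequences are shown for NPC1L1, which names the pathway, and for ABCA1, which was higher with both ligands. RefSeq promoter windows of the assembly GRCh38.p14, each from 250 bases before to 50 bases after a start, were used for 7 of the 9 genes (more than 1 window each for NPC2 and LIPA), all but SCARB1 and SOAT2. The windows were searched on both strands for 4 motifs: TNGCGTG, a core bound by AHR; TCACNCCAC, a form of the sterol regulatory element; TCACGTGA, the element of lysosomal genes; and the direct repeat of LXR, written as GGTNA, 5 bases of any kind and GGTCA. The AHR core was in 5.51% of 35116 windows, the sterol element in 1.13%, the lysosomal element in 0.98% and the LXR repeat in 0.239%. Of the 7 genes, NPC1L1 held the AHR core, ABCA1 held the LXR repeat, and the other letters were found in none of these windows. The 250 bases before each start are given here from 5′ to 3′ on the gene's strand. The capitals in NPC1L1 (chr7:44541331-44541580, minus strand) mark the AHR core at positions -221 to -215 from the start. The capitals in ABCA1 (chr9:104928156-104928405, minus strand) mark the LXR repeat at positions -69 to -55, which reads on the opposite strand. A match is a description of the letters and not evidence of binding.
NPC1L1: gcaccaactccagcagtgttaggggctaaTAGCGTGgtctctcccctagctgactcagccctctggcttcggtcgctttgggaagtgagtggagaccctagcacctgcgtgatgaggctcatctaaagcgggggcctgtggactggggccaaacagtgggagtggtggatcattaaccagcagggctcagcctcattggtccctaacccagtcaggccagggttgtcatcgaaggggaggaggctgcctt
ABCA1: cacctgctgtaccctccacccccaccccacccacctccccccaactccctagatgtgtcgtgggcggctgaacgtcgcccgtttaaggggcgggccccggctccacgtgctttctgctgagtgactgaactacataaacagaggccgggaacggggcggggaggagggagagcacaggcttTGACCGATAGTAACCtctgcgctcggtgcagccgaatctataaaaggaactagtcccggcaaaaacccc

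Libraries held 12333683 to 16869537 counts over 1 transcript entry per gene, and the ranges of the groups overlapped. Levels are given as CPM, read counts scaled to a common library size with TMM factors. Changes are log2 fold changes with their SE from edgeR's quasi-likelihood test, and a gene was called at a Benjamini-Hochberg adjusted p under 0.05 over the 14674 genes. With libraries scaled to their totals alone, all tested genes had a median change of 0.14 with SGA360 and 0.16 with SGA315 (log2), against 0.02 and 0.04 with TMM, so small changes against lovastatin alone depend on the scaling. CYP1A1, the classical AHR target, had 5.45 ± 0.402 CPM with SGA360, 1053 ± 30.0 CPM with SGA315 and 44.6 ± 3.82 CPM with lovastatin alone (SD, n = 3 each). Of a list of 5 AHR targets, 0 were called higher and 4 lower with SGA360, and 3 higher and 1 lower with SGA315. With scaling to totals only, with DESeq2 or against a minimum change of 1.2-fold, 3 were lower with SGA360. Of all genes tested, with TMM, 31.4% were called higher and 31.4% lower with SGA360, and 36% and 33.2% with SGA315. The epithelial markers KRT8, EPCAM and VIL1 were present in every group, and the summed level of the 10 tested epithelial and enterocyte markers, of 11 listed, was 6052 to 6476 CPM with SGA360, 4585 to 4722 CPM with SGA315 and 8385 to 8479 CPM with lovastatin alone. KRT8 and KRT18, the keratins, made up most of these sums, at 2632 and 1193 CPM with SGA360, 1493 and 717 CPM with SGA315, and 3481 and 1632 CPM with lovastatin alone. 3 of the 10, CDX2, ALPI and SI, had higher means with each ligand than with lovastatin alone: the transcription factor CDX2 averaged 80.2, 117 and 75.9 CPM with SGA360, SGA315 and lovastatin alone, and the alkaline phosphatase ALPI 9.75, 22.6 and 7.58 CPM. Enterocyte markers differed widely in level, with DPP4 at 192 to 304 CPM in group means, SI under 2 CPM in every group, and FABP2 at 1 count over all libraries. Many markers of other cell types were low or at 0, the hepatocyte marker ALB and the fibroblast marker COL1A1 being among the exceptions. 4 of 8 markers of other intestinal cells were tested, with summed levels of 20.3 to 20.8 CPM with SGA360, 19.99 to 21.6 CPM with SGA315 and 24.6 to 27.5 CPM with lovastatin alone, and DEFA5, CYP7A1 and KDR had 0 counts. Of 5 fibroblast markers 2 were tested, with sums of 36.4 to 39.3, 26.6 to 28.7 and 50.9 to 54.5 CPM in the same groups, while COL1A2 and DCN had 1 count each. COL1A1 made up most of these sums, with means of 30.2 CPM with SGA360, 21.3 CPM with SGA315 and 44.1 CPM with lovastatin alone. Of 4 hepatocyte markers 1, ALB, was tested, at 76.1 to 104, 50.6 to 64.0 and 92.4 to 124 CPM in the same groups. The part of these marker differences in the results below was not tested, and fewer cells of a type and less RNA per cell cannot be told apart in such samples.

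With SGA360, against lovastatin alone, ABCA1 rose and SCARB1, NPC1, SOAT1, LIPA and TMEM97 fell. NPC1L1, NPC2 and SOAT2 were not called. Calls were common in this comparison: 62.8% of the genes tested were called, 31.4% higher and 31.4% lower, so 6 of 9 genes called is close to the share of all genes. For 6 of the 9 the libraries of the groups were fully separated in CPM, as they were for 66.3% of all genes. The median log2 fold change of the 9 genes was -0.12, against 0.02 for all genes tested.

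With SGA315, against lovastatin alone, all 9 genes were called: ABCA1 and SOAT2 rose, and the other 7 fell. Of all genes tested, 69.2% were called, 36% higher and 33.2% lower. For 8 of the 9, NPC1L1 being the exception, the libraries of the groups were fully separated in CPM, as they were for 70.3% of all genes. The median log2 fold change of the 9 was -0.30, against 0.04 for all genes.

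Between the ligands, with SGA360 against SGA315, NPC1L1, SCARB1, NPC2, SOAT1 and TMEM97 were higher with SGA360 and SOAT2 was lower. ABCA1, NPC1 and LIPA were not called. This was the single pair of compounds, compared at the same dose and time. Of all genes tested, 42.7% were called, 21.8% higher and 20.9% lower, and the libraries were fully separated in CPM for 5 of these 9 and for 49.1% of all genes. Against a minimum change of 1.2-fold, SCARB1, TMEM97 and SOAT2 were still called, and NPC1L1, NPC2 and SOAT1 were not. Both ligand comparisons use the same 3 lovastatin libraries.

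**Figure D1:**
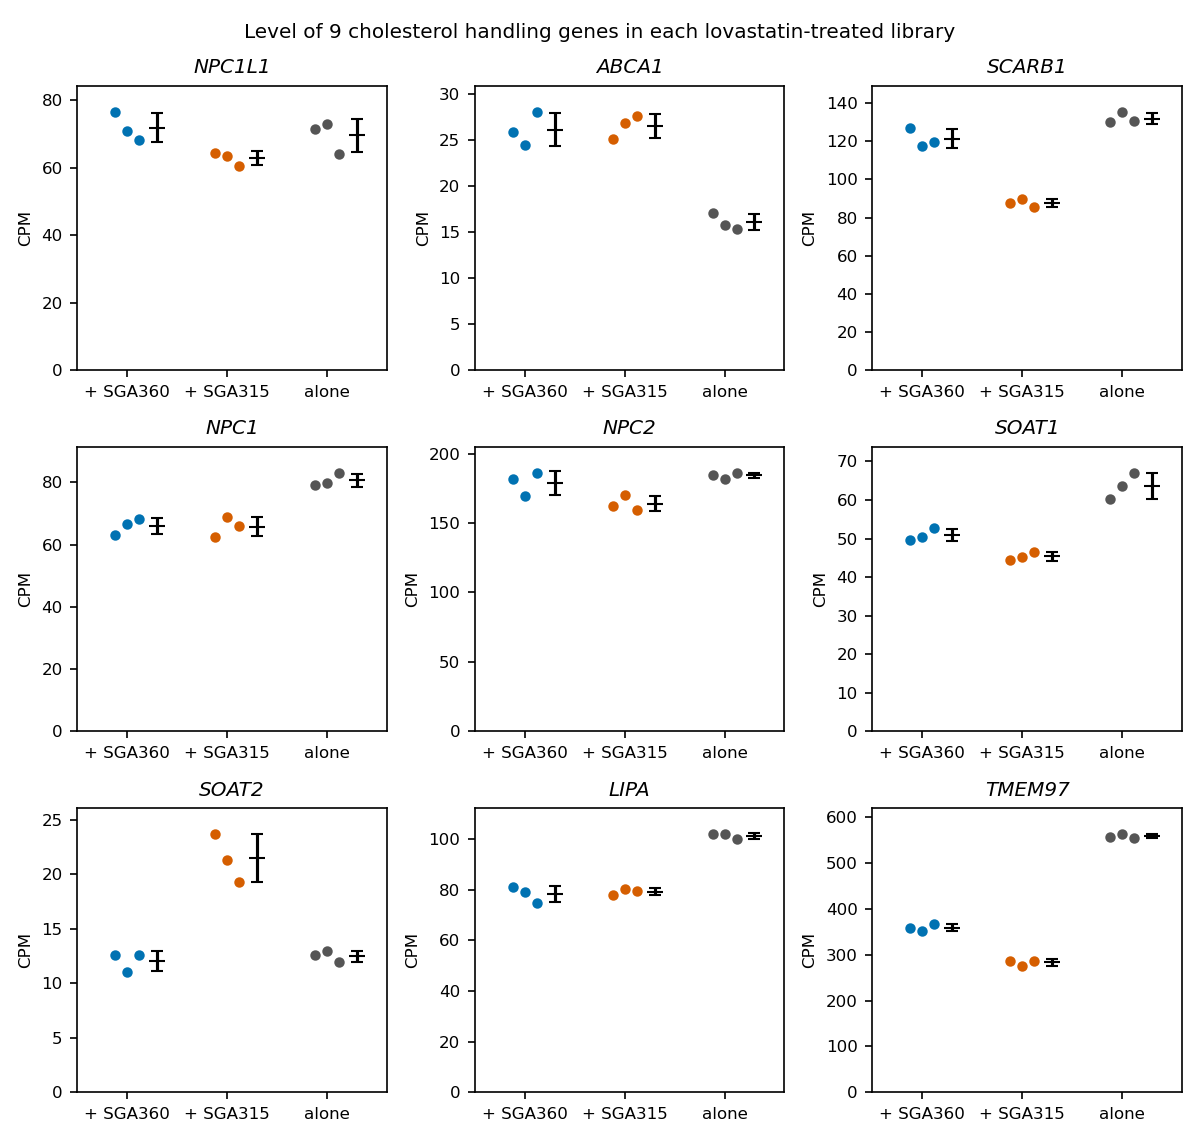
CPM of each gene in each library (vertical axes, 1 panel per gene, each from 0), with SGA360, SGA315 and lovastatin alone from left to right. Points are libraries and lines are means ± SD (n = 3 each); ABCA1 is higher with both ligands, TMEM97 is lower with both, and SOAT2 is higher with SGA315.

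**Figure D2:**
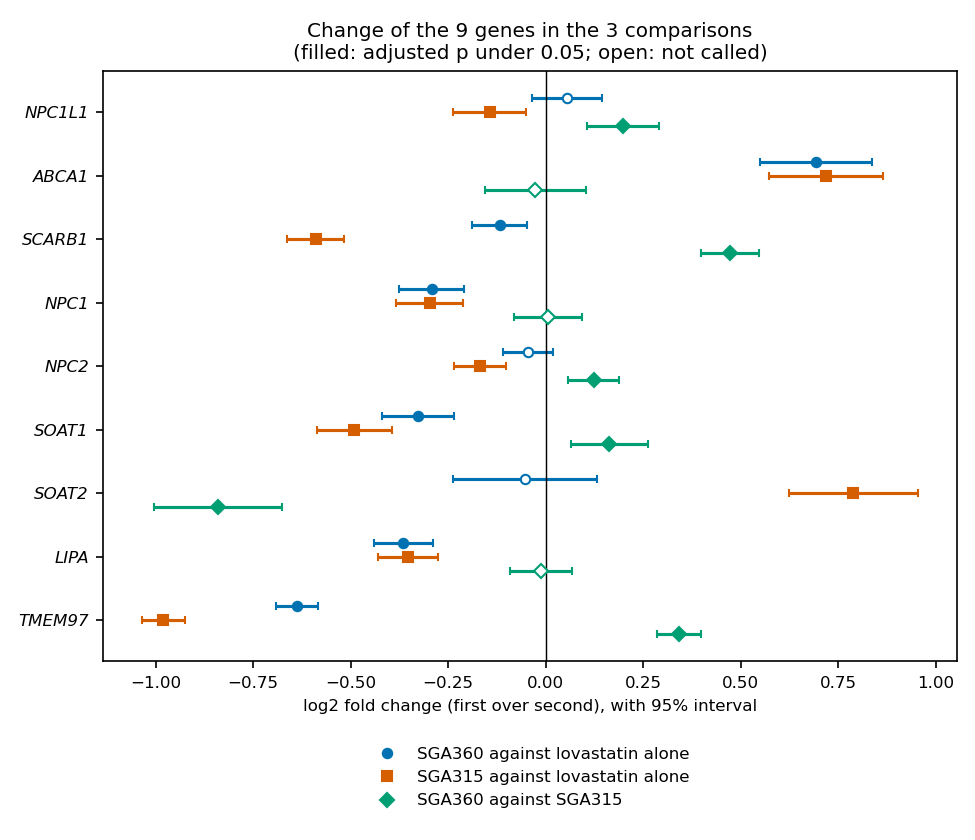
Log2 fold changes of the 9 genes (horizontal axis) with their 95% intervals in the 3 comparisons. Filled points were called at an adjusted p under 0.05; NPC1L1 lies near 0 in all 3, from 0.05 with SGA360 to -0.14 with SGA315 and 0.20 between the ligands.

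NPC1L1, the transporter that ezetimibe blocks, had 76.6, 71.0 and 68.3 CPM in the SGA360 libraries, 64.6, 63.4 and 60.6 CPM in the SGA315 libraries, and 71.7, 73.2 and 64.2 CPM in the lovastatin libraries. 2 of the 3 SGA315 values lay below the lowest lovastatin value, and the SGA360 values lay within the lovastatin range or above it. The change with SGA360 was 0.05 ± 0.045 on the log2 scale, with a 95% interval of -0.04 to 0.14 (edgeR adjusted p = 0.293). With SGA315 NPC1L1 fell by 0.14 ± 0.047 (edgeR adjusted p = 0.00526), a 1.11-fold lower level, and 75% of all genes tested changed by at least as much. That call ended without lovastatin replicate 2 (edgeR adjusted p = 0.0554), with scaling to totals only (0.677) and against a minimum change of 1.2-fold, and across alternatives its adjusted p ranged from 0.000164 to 1. With scaling to totals only, NPC1L1 was instead called higher with SGA360, by 0.17 (edgeR adjusted p = 0.000868, with a range of 0.000868 to 1 over the alternatives). Between the ligands NPC1L1 was 0.20 ± 0.046 higher with SGA360 than with SGA315 (edgeR adjusted p = 0.000278), with no overlap of the libraries.

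SCARB1, the scavenger receptor SR-BI that binds high-density lipoprotein, separated the ligands more widely. It had 127, 118 and 119 CPM in the SGA360 libraries, 87.5, 89.5 and 85.3 CPM in the SGA315 libraries, and 129.7, 135 and 130.4 CPM in the lovastatin libraries. All 3 SGA315 libraries lay far below the other 6. SCARB1 fell by 0.59 ± 0.037 with SGA315 (1.51-fold; edgeR adjusted p = 9.27e-23) and by 0.12 ± 0.035 with SGA360 (1.09-fold; edgeR adjusted p = 0.00242). The SGA360 value was -0.004 with scaling to totals only, which ended the call (edgeR adjusted p = 0.921, with a range of 0.00017 to 1 over the alternatives). The difference itself was 0.47 ± 0.037 (edgeR adjusted p = 2.6e-17), and 9.96% of all genes differed between the ligands by at least as much.

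ABCA1, which passes cholesterol to apolipoprotein A-I and is a target of LXR, was the gene that rose with both ligands. It had 25.8, 24.5 and 28.02 CPM in the SGA360 libraries, 25.1, 26.8 and 27.6 CPM in the SGA315 libraries, and 17.0, 15.8 and 15.4 CPM in the lovastatin libraries. The ligand groups overlapped each other, and both lay above all lovastatin libraries. The rise was 0.69 ± 0.072 with SGA360 (1.61-fold; edgeR adjusted p = 4.1e-13) and 0.72 ± 0.073 with SGA315 (1.64-fold; edgeR adjusted p = 1.07e-13). Changes of that size or more were seen in 10.9% of all genes with SGA360 and in 15% with SGA315. The difference between the ligands was -0.03 ± 0.065, with a 95% interval of -0.16 to 0.10, which leaves room for a difference of either sign within those bounds. The letters of the LXR repeat shown above were in the ABCA1 window and in 0.239% of all windows.

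Among the lysosomal genes, LIPA, the acid lipase that splits cholesteryl esters, and NPC1, the membrane protein that hands cholesterol on from the lysosome, fell with both ligands. LIPA had 81.0, 79.2 and 74.8 CPM in the SGA360 libraries, 77.8, 80.4 and 79.5 CPM in the SGA315 libraries, and 102.0, 101.8 and 99.8 CPM in the lovastatin libraries, with both ligand groups below all lovastatin libraries. LIPA fell by 0.36 ± 0.038 with SGA360 and by 0.35 ± 0.039 with SGA315 (edgeR adjusted p = 4.54e-13 and 1.58e-12). NPC1 averaged 66.0 ± 2.64 CPM with SGA360, 65.7 ± 3.08 CPM with SGA315 and 80.7 ± 2.09 CPM with lovastatin alone (SD, n = 3 each). It fell by 0.29 ± 0.042 with SGA360 and by 0.30 ± 0.043 with SGA315 (edgeR adjusted p = 9.7e-09 and 7.15e-09). These falls were ordinary in size: 33.7% and 44.1% of all genes changed by at least as much as LIPA, and 43.4% and 51.8% by at least as much as NPC1. Between the ligands the difference was -0.01 for LIPA, with a 95% interval of -0.09 to 0.07, and 0.005 for NPC1, with an interval of -0.08 to 0.09. Against a minimum change of 1.2-fold NPC1 was not called with SGA360 (edgeR adjusted p = 0.253) or SGA315 (0.173). NPC1 shares 183 exon bases, 3.55% of its exon length, with RMC1 on the opposite strand. RMC1 had 2426 counts in all, against 9383 for NPC1, and fell too, with log2 fold changes of -0.19 with SGA360 and -0.22 with SGA315. Because the strand setting of the counting is not given, shared reads cannot be told apart.

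NPC2, the soluble lysosomal protein that carries cholesterol to NPC1, moved little. It averaged 179 ± 8.73 CPM with SGA360, 164 ± 5.41 CPM with SGA315 and 184 ± 2.08 CPM with lovastatin alone (SD, n = 3 each). It fell by 0.17 ± 0.033 with SGA315 (edgeR adjusted p = 8.55e-06), and the change with SGA360 was -0.05 ± 0.032, with a 95% interval of -0.11 to 0.02 (edgeR adjusted p = 0.218). The SGA315 call was lost with scaling to totals only (-0.05; edgeR adjusted p = 0.199) and against a minimum change of 1.2-fold, with adjusted p-values of 4.74e-08 to 1 over the alternatives. Between the ligands NPC2 was 0.12 ± 0.033 higher with SGA360 (edgeR adjusted p = 0.00167), with overlapping libraries. NPC2 also shares 72 exon bases with the miRNA gene MIR4709 on its own strand, an entry with 5235 counts that was not called with either ligand. Strand cannot separate reads of these bases, so the counts of MIR4709 may be reads of NPC2.

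TMEM97, the sigma-2 receptor that binds NPC1 and limits its amount, is a target of SREBP2, and it showed the largest fall of the 9 genes with each ligand. It had 358, 351 and 367 CPM in the SGA360 libraries, 287, 275 and 286 CPM in the SGA315 libraries, and 557, 563 and 554 CPM in the lovastatin libraries. The 3 groups were fully apart. TMEM97 fell by 0.64 ± 0.027 with SGA360 (1.56-fold; edgeR adjusted p = 6.84e-32) and by 0.98 ± 0.027 with SGA315 (1.97-fold; edgeR adjusted p = 6.82e-42), and its level was 0.34 ± 0.028 higher with SGA360 than with SGA315 (edgeR adjusted p = 1.1e-16). With SGA315 7.39% of all genes changed by at least as much, and with SGA360 13%. TMEM97 shares 361 exon bases, 14.1% of its exon length, with IFT20 on the opposite strand. IFT20 had 9583 counts in all, against 53029 for TMEM97, and rose by 0.10 with SGA360 and by 0.38 with SGA315, opposite in direction to TMEM97.

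**Figure D3:**
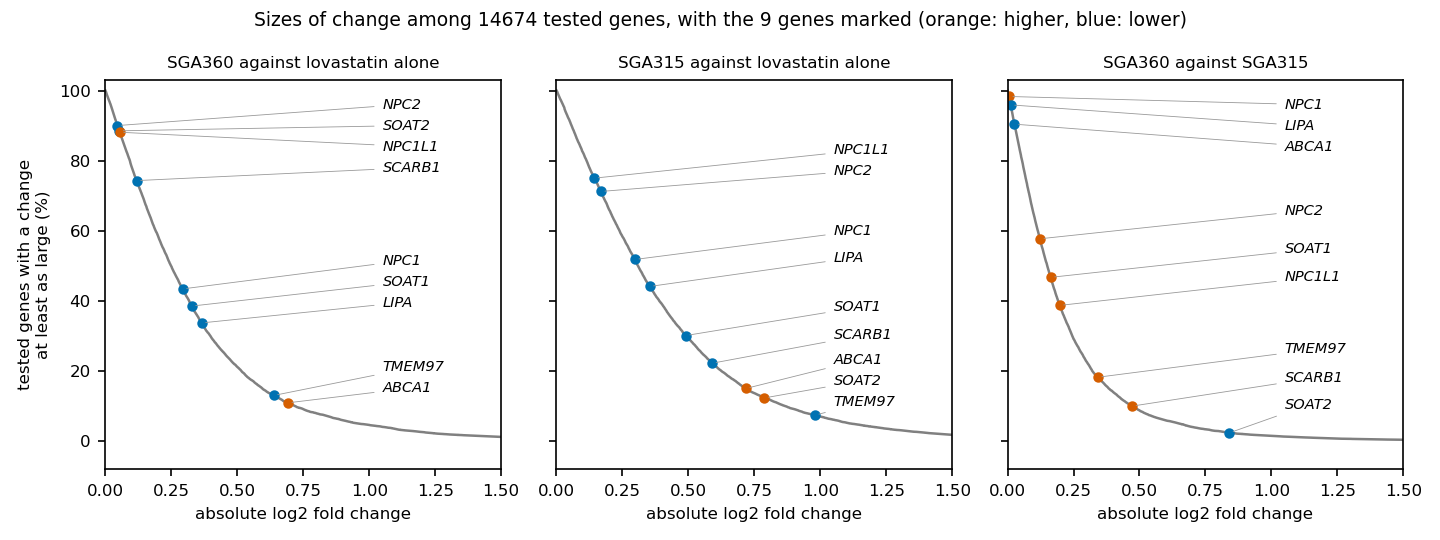
Share of the 14674 tested genes (vertical axis, percent) that changed by at least a given size (horizontal axis, absolute log2 fold change), 1 panel per comparison, with the 9 genes marked on the curve. Between the ligands SOAT2 stands at 2.33%, SCARB1 at 9.96% and both NPC1 and LIPA at over 95%, and with SGA315 against lovastatin alone TMEM97 stands at 7.39%.

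The 2 esterifying enzymes did not move alike. SOAT1, the form made in most tissues, fell with both ligands, and SOAT2, the form of intestine and liver, rose with SGA315 and was not called with SGA360. SOAT2 had 12.6, 11.0 and 12.6 CPM in the SGA360 libraries, 23.7, 21.3 and 19.3 CPM in the SGA315 libraries, and 12.6, 12.9 and 11.9 CPM in the lovastatin libraries. The 3 SGA315 libraries lay above all others, and the SGA360 and lovastatin libraries overlapped. SOAT2 rose by 0.79 ± 0.083 with SGA315 (1.73-fold; edgeR adjusted p = 4.06e-13). Its change with SGA360 was -0.05 ± 0.093, with a 95% interval of -0.24 to 0.13 (edgeR adjusted p = 0.638). The difference between the ligands, -0.84 ± 0.082 (1.79-fold lower with SGA360; edgeR adjusted p = 1.57e-13), was the largest among the 9 genes, and 2.33% of all genes differed by at least as much. SOAT2 rested on 160 to 360 raw counts per library.

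SOAT1 averaged 50.9 ± 1.67 CPM with SGA360, 45.4 ± 1.08 CPM with SGA315 and 63.7 ± 3.34 CPM with lovastatin alone (SD, n = 3 each). The libraries of the 3 groups did not overlap. It fell by 0.33 ± 0.046 with SGA360 (edgeR adjusted p = 5.4e-09) and by 0.49 ± 0.048 with SGA315 (edgeR adjusted p = 2.08e-14), and was 0.16 ± 0.049 higher with SGA360 than with SGA315 (edgeR adjusted p = 0.00508). Against a minimum change of 1.2-fold the SGA360 fall was not called (edgeR adjusted p = 0.0878). Per kilobase of transcript, the ratio of SOAT2 to SOAT1 was 0.849, 0.733 and 0.797 in the SGA360 libraries, 1.78, 1.58 and 1.39 in the SGA315 libraries, and 0.698, 0.679 and 0.596 in the lovastatin libraries. SOAT2 was thus above SOAT1 per kilobase in all 3 SGA315 libraries and below it in the other 6. That order rests on the transcript lengths used, 2044 bases for SOAT2 and 6835 bases for SOAT1. In CPM, SOAT2 was below SOAT1 in every library, with means of 21.4 and 45.4 CPM with SGA315. The ratio per kilobase is a description and was not tested.

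**Figure D4:**
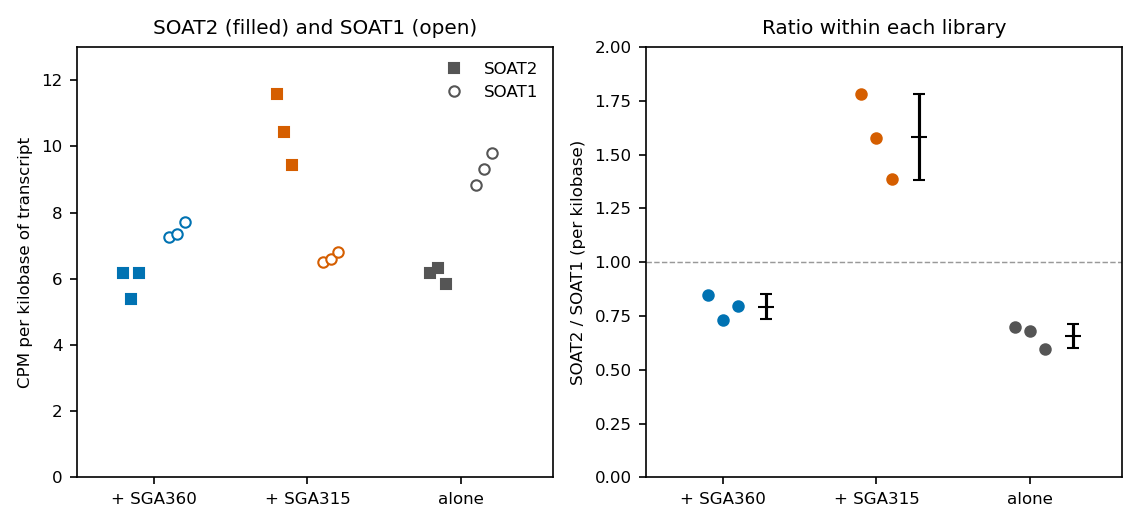
Level per kilobase (CPM per kb of transcript) of SOAT2 and SOAT1 in each library, and the ratio of SOAT2 to SOAT1, with SGA360, SGA315 and lovastatin alone from left to right. The ratio is 1.39 to 1.78 with SGA315 and under 1 in the other libraries. It rests on transcript lengths of 2044 bases for SOAT2 and 6835 bases for SOAT1.

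Levels between genes were compared as CPM per kilobase of transcript. NPC2 averaged 173 CPM per kb with SGA360, 158 CPM per kb with SGA315 and 178 CPM per kb with lovastatin alone, and TMEM97 averaged 139.7, 110.2 and 217 CPM per kb in the same groups. TMEM97 was thus the highest of the 9 genes with lovastatin alone and stood second to NPC2 with either ligand. SCARB1 and LIPA followed in every group, at 46.4 and 28.2 CPM per kb with SGA360, 33.5 and 28.5 CPM per kb with SGA315, and 50.5 and 36.4 CPM per kb with lovastatin alone. Their order with SGA315 rests on the length used for SCARB1, 2611 bases. Another SCARB1 entry, of 3329 bases, held 98.59% of the counts, and that length would place SCARB1 below LIPA with SGA315. NPC1L1 and NPC1 came next, at 14.3 and 12.8 CPM per kb with SGA360, 12.5 and 12.7 CPM per kb with SGA315, and 13.8 and 15.6 CPM per kb with lovastatin alone. NPC1L1 thus stood above NPC1 with SGA360 and below it with lovastatin alone, while with SGA315 their libraries overlapped. That was the single pair of neighbours in any group whose libraries overlapped. The order of NPC1L1 and NPC1 depends on the length used for NPC1L1, 5048 bases. Its entry of 4141 bases held 99.94% of the same counts, and that length would place NPC1L1 higher per kilobase in every group. SOAT1, SOAT2 and ABCA1 were lowest, ABCA1 at 2.49, 2.52 and 1.53 CPM per kb with SGA360, SGA315 and lovastatin alone.

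Counts of calls in this and the following lists stand against the shares of all genes tested. With TMM those were 31.4% higher and 31.4% lower with SGA360, and 36% higher and 33.2% lower with SGA315. List counts scaled to totals stand against other shares. Scaled so, 6464 of the 14674 genes were higher and 3137 lower with SGA360, and 6926 higher and 3627 lower with SGA315. Genes around NPC1L1 were read in a list of 13 genes for its recycling and transcription, of which 12 were tested. With SGA360 5 were higher and 6 lower, with a median log2 fold change of -0.09, whose sign turned (0.02) when libraries were scaled to totals. With SGA315 6 were higher and 5 lower, with a median of 0.04, against 7 higher and 3 lower and a median of 0.17 when scaled to totals. DESeq2 called 3 higher and 4 lower with SGA360, and 6 higher and 5 lower with SGA315. Against a minimum change of 1.2-fold, 2 were higher and 2 lower with each ligand. HNF4A, a nuclear receptor of enterocytes and hepatocytes that is known to activate the human NPC1L1 promoter, had 269 ± 9.85 CPM with SGA360, 438 ± 10.2 CPM with SGA315 and 457 ± 3.45 CPM with lovastatin alone (SD, n = 3 each). It fell by 0.77 with SGA360 (edgeR adjusted p = 6.85e-35). With SGA315 its value was -0.06 (edgeR adjusted p = 0.0483), and scaling to totals only turned its sign (0.06; edgeR adjusted p = 0.0342), while the call ended without lovastatin replicate 2 (0.0689) or SGA315 replicate 3 (0.123). PPARA, the fatty acid receptor, rose by 0.51 with SGA360 and by 0.92 with SGA315, and CDC42, a small GTPase of NPC1L1 recycling, fell, with log2 fold changes of -0.59 and -0.69. SREBF2, the gene of SREBP2, rose by 0.34 with SGA360 and by 0.16 with SGA315.

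Of 12 genes of lipoprotein uptake 11 were tested, and most of those called were lower: 2 were higher and 7 lower with SGA360, and 3 were higher and 6 lower with SGA315. When scaled to totals, 4 were higher and 7 lower with SGA360, and 4 higher and 5 lower with SGA315. LRP2, the large endocytic receptor megalin, fell with both ligands, with log2 fold changes of -1.10 and -1.21. The medians of the list were -0.36 and -0.28, against 0.02 and 0.04 for all genes. All 10 genes of a sterol-response reference list were tested, with 2 higher and 8 lower with each ligand and medians of -0.54 with SGA360 and -0.97 with SGA315. HMGCS1, the synthase that feeds the mevalonate pathway, fell, with log2 fold changes of -0.56 and -0.97.

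**Figure D5:**
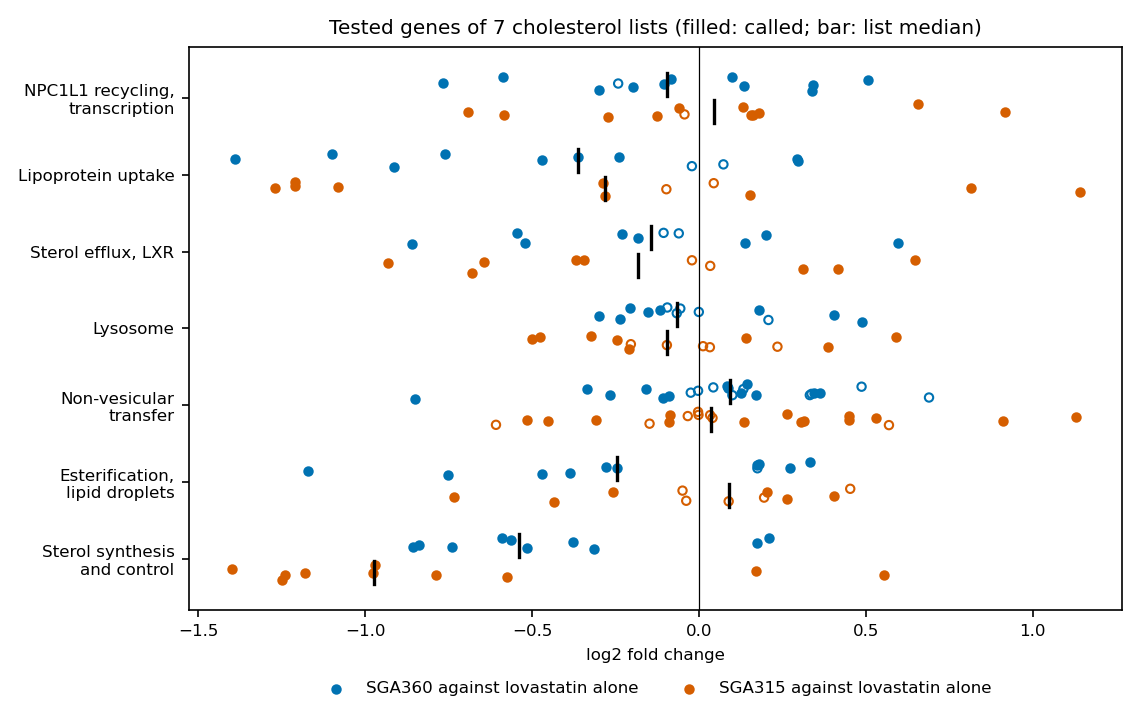
Log2 fold changes (horizontal axis) of each tested gene of 7 lists (rows), with SGA360 (blue) and with SGA315 (orange), each against lovastatin alone. Filled points were called and bars are list medians. The sterol-response list in the lowest row has medians of -0.54 and -0.97, and the other lists have medians between -0.36 and 0.09.

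Other genes of sterol efflux and LXR moved in both directions. Of 13 listed 10 were tested, and 3 were higher and 5 lower with each ligand. When scaled to totals, the list had 3 higher and 3 lower with SGA360 and 5 higher and 5 lower with SGA315. ABCA3, a lipid transporter of the same family, rose by 0.60 and 0.65, while ABCA2 fell by 0.23 with SGA360 and by 0.34 with SGA315. NR1H3, which encodes a form of LXR, rose by 0.20 with SGA360 and by 0.42 with SGA315 (edgeR adjusted p = 0.00383 and 1.45e-08). APOE, an apolipoprotein, rose by 0.14 with SGA360 and had a log2 fold change of -0.02 with SGA315 (edgeR adjusted p = 6.41e-06 and 0.485). SREBF1, an LXR target that encodes the regulator of fatty acid synthesis, fell by 0.68 with SGA315 (edgeR adjusted p = 1.03e-18) and had a log2 fold change of -0.06 with SGA360 (edgeR adjusted p = 0.263). LPCAT3, a phospholipid-remodelling enzyme and LXR target, fell, with log2 fold changes of -0.52 and -0.93. ABCG1, ABCG5 and ABCG8, the transporters that are also LXR targets, had 4, 1 and 2 counts over all 9 libraries and were not tested. APOA1, the acceptor of ABCA1-borne cholesterol, fell, with log2 fold changes of -0.55 and -0.64.

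In the list of lysosomal sterol egress and lysosome membrane, all 13 genes were tested, and 3 were higher and 5 lower with each ligand. The counts changed to 5 higher and 3 lower with SGA360 and 6 higher and 4 lower with SGA315 when libraries were scaled to totals only. With TMM, 62.8% of all genes tested were called with SGA360 and 69.2% with SGA315, so calls in this list were about as common as among all genes. CLN3, a lysosomal membrane protein, rose by 0.41 and 0.59, and LAMP1, an abundant lysosomal membrane glycoprotein, fell, with log2 fold changes of -0.24 and -0.32. Of 23 genes of non-vesicular sterol transfer 22 were tested, and 7 were higher and 6 lower with SGA360, and 9 higher and 5 lower with SGA315. When scaled to totals, 12 were higher and 3 lower with SGA360, and 13 higher and 3 lower with SGA315. STARD4, a sterol carrier controlled by SREBP2, fell by 0.51 with SGA315 (edgeR adjusted p = 1.14e-19) and had a log2 fold change of -0.02 with SGA360 (edgeR adjusted p = 0.557).

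Among 13 genes of esterification, ester hydrolysis and lipid droplets 11 were tested. With SGA360 4 were higher and 6 lower, and with SGA315 3 were higher and 3 lower (4 higher and 2 lower when scaled to totals). CES1, a carboxylesterase, rose by 0.33 and 0.40, and its near-identical pseudogene makes these values uncertain. LCAT, which esterifies cholesterol on lipoproteins, fell, with log2 fold changes of -0.75 and -0.73, at levels under 10 CPM in every group. PLIN2, which coats lipid droplets, fell by 0.39 with SGA360 and had a log2 fold change of -0.05 with SGA315 (edgeR adjusted p = 0.298), and the difference between the ligands was -0.34.

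The genes most like 4 of the 9 in pattern were found by the root mean square distance of centred log2 CPM over the 9 libraries, among 11515 genes with at least 5 CPM on average. For TMEM97 the nearest were HMGCS1 at a distance of 0.0368, the actin-binding protein PFN1 at 0.0388 and TPM3, a tropomyosin, at 0.0398. For SCARB1 they were FOXA2, a transcription factor, at 0.0364, LATS2, a kinase, at 0.0389 and GSS, glutathione synthetase, at 0.0398. For ABCA1 they were SFR1 at 0.0548, CFAP36 at 0.056 and LRRC37B at 0.0561. SOAT2 had no neighbour as near, with KLC4 at 0.0988 and FMOD and MXD4 at 0.0991. The distance includes the spread within groups. With SGA315 the SD of SOAT2 was 10.2% of its mean, against 2.34% for TMEM97, and the part of this spread in the distance was not tested. These distances describe likeness over 9 libraries and carry no test.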

How the data were processed

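Values are whole-number read counts as deposited by the authors, for 65325 RefSeq transcript entries in 9 libraries, and they are raw, per the file headers. The submitters' processing notes name TopHat2 2.0.13, HTSeq 0.5.4p3 and hg19, with no role for any. Libraries were poly(A) libraries from Trizol-extracted RNA made with an Illumina kit, per the labels' protocols. No source used here gives the strand setting or the annotation release, so reads of overlapping genes may not have been separated.

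Entries were named from RefSeq GRCh38.p14 (64346) and GENCODE 29 (544), and 435 unnamed entries with 0.256% of counts were left out. The entry with the highest total stood for each gene. Where genes had identical counts (42 sets) 1 was kept and 65 were dropped, which left 27654 genes. The main test was the quasi-likelihood F test of edgeR 4.0.16 (R 4.3.3), after filterByExpr (minimum count 10, minimum total 15) and TMM scaling, with 1 coefficient per group and all 9 libraries in 1 fit. Benjamini-Hochberg adjustment ran over 14674 genes, and intervals are 95% intervals from that fit. Transcript lengths came from GENCODE 29. Replicates of a group differed by more than sampling noise, with a chi-square per degree of freedom of 1.36 to 2.39.

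Alternatives were RLE scaling, scaling to totals only, DESeq2 1.42.0, no filter, the compared groups only, a replicate block, a test against a 1.2-fold change, the lowest accession of each gene and leaving out each library. The 9 genes, the lists and the tests were chosen with earlier results of these data known. From each list, at most the 4 genes with the smallest p against lovastatin alone were to be named, and some that this rule takes are not reported here. ABCA2, NR1H3, APOE and SREBF2 are named besides, picked once their values were known. Nearest patterns are given for genes called with a change of at least 0.5 on the log2 scale in any comparison.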

Additional observations from a re-analysis of the deposited data

How the results depend on the processing

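Of the 27 changes of the 9 genes, 12 kept their direction and their side of the threshold under all 17 alternatives, and 433 of 459 alternative values did so. Against a minimum change of 1.2-fold, 3952 genes were called with SGA360 (9208 in the test of any change), 5529 with SGA315 (10156) and 1144 between the ligands (6264), and 3 of the 6 of these genes called with SGA360, 6 of the 9 called with SGA315 and 3 of the 6 called between the ligands passed. Scaling to totals only gave 6464 genes higher and 3137 lower with SGA360, against 4605 and 4603 with TMM, and 6926 higher and 3627 lower with SGA315, against 5286 and 4870. It turned the sign of uncalled changes: NPC2 with SGA360 to 0.0688, SOAT2 with SGA360 to 0.0617, and NPC1 between the ligands to -0.00195. Leaving out 1 library each, the uncalled changes that crossed 0 ranged from -0.0184 to 0.0875 for NPC1L1 and from -0.107 to 0.00123 for SOAT2 with SGA360, and between the ligands from -0.0713 to 0.0206 for ABCA1, from -0.0318 to 0.0384 for NPC1 and from -0.0371 to 0.017 for LIPA. Without 1 library, 8607 to 9377 genes were called with SGA360, 9603 to 10233 with SGA315 and 5332 to 6211 between the ligands. DESeq2 called 7909, 8920 and 4711 genes.

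The deviations of same-numbered libraries correlated at -0.0243 to 0.0457, so no shared deviation by replicate number was seen. Whether same-numbered libraries were prepared together is not stated in the labels, and these correlations cannot settle it. With the number as a replicate block, 9337, 10272 and 6437 genes were called, and 6, 9 and 6 of the 9 genes. ABCA1 rested on 210 to 428 and SOAT2 on 160 to 360 counts per library, which limits their precision more than that of the other genes.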

Other observations

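3 genes of the lists that moved in opposite directions with the ligands are given here, picked once their values were known. CUBN, the endocytic receptor cubilin that works with LRP2, had 7.97 CPM with SGA360, 37.0 CPM with SGA315 and 21.1 CPM with lovastatin alone. It fell by 1.39 on the log2 scale with SGA360 (edgeR adjusted p = 8.1e-21) and rose by 0.82 with SGA315 (edgeR adjusted p = 1.16e-16), and the difference between the ligands was -2.20 (edgeR adjusted p = 5.61e-33). APOA4, an apolipoprotein of intestinal lipoproteins, had 2.78 CPM with SGA360, 6.21 CPM with SGA315 and 4.99 CPM with lovastatin alone. It fell by 0.86 with SGA360 (edgeR adjusted p = 2.71e-06) and rose by 0.31 with SGA315, where the call was close to the threshold (edgeR adjusted p = 0.0326). APOA4 rested on 611 counts over all libraries. DGAT1, which makes triglyceride, fell by 0.25 with SGA360 and rose by 0.20 with SGA315.

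NPC1L1 has 2 other, shorter transcript entries in the table. That of 4141 bases held 99.94% of the counts of the entry used. The counts of the shortest, of 2554 bases, were 43.9% ± 2.45 of those of the entry used with SGA360, 44.4% ± 1.12 with SGA315 and 42.9% ± 0.967 with lovastatin alone (SD, n = 3 each), and the ranges of the groups overlapped.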
